A study of Mus musculus with 10 samples.

Results

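The accessible regions at 6 SOX transcription factor genes were described in cultures of adult mouse neural stem cells: Sox1 of the SoxB1 group, Sox14 and Sox21 of the SoxB2 group, and Sox5, Sox6 and Sox13 of the SoxD group. Sox2 and Sox3, the other SoxB1 genes, were left out of the set. A peak was counted at a gene when its summit lay in the gene body or within 50 kb of it (GENCODE annotation, GRCm38). This gave 827 of the 759157 peaks in the 10 peak lists, and merging peaks that shared at least 1 bp gave 139 of 137454 regions. Neither the peaks' strength nor the libraries they came from entered this rule.

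SOX proteins bind DNA through a high-mobility-group domain and act with partner factors. SoxB1 proteins are activators that keep neural progenitors undifferentiated, and SoxB2 proteins bind similar sites but act mainly as repressors, with SOX21 known for promoting neuronal differentiation. SoxD proteins lack a transactivation domain of their own, dimerise through a coiled coil and modify the action of other SOX factors. SOX5 and SOX6 are known for their roles in neural progenitors, in cortical projection neurons and interneurons, and in holding back oligodendrocyte differentiation. The Sox5 and Sox6 genes are very long, with several start sites and wide introns, whereas Sox1, Sox14 and Sox21 are short genes with a single coding exon.

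ATAC-seq, in which a transposase inserts adapters into open DNA, had been run on cultured neural stem cells, taken from the subependymal zone (SEZ) at a mouse age of 10 weeks. Wild-type (WT) mice and mice without functional Cdkn1b (p27KO), the gene of the cyclin-dependent kinase inhibitor p27, were compared; the study kept the mutant on a C57BL/6J background, and the mutation is constitutive. The proliferating state (PRO) was that of neurospheres, kept for 3 days per the labels in EGF (20 ng/ml) and FGF (10 ng/ml). Cells at the onset of differentiation (DIFF) were seeded on Matrigel for 2 days with FGF and were then held for 24 h without mitogens in 2% serum, so that PRO and DIFF also differed in substrate and serum. WT had 3 libraries in each state and p27KO had 2, each from 50000 cells and called a biological replicate by the study. Where cultures share an animal, p-values measure only the spread between these libraries. In such bulk cultures, fewer cells with an open region and less open DNA per cell cannot be told apart.

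The lists held 57534 to 91801 peaks, and the number of reads behind them is unknown. WT DIFF replicate 3, with 88738 peaks, stood apart from the other WT DIFF libraries, with 61783 and 57534. Peak strength was compared as the percentile of a peak's fold enrichment over local background within its own list, where 100 is the strongest peak. For the tests, ranks were turned into normal scores, the regions with no peak sharing the lowest rank. A change of 1 is 1 SD of a ranking without such ties. With 2 or 3 libraries per group, a lack of overlap between groups is easily met. The share of all regions without overlap was not counted. The score of a region with no peak differed between groups. It averaged −1.65 in WT PRO (at Sox5:29), −1.32 in WT DIFF and −1.35 in p27KO DIFF (both at Sox5:50). In WT, a lack of peaks thus scored higher at DIFF than at PRO, and changes at weak or absent peaks carry this offset. At the Cdkn1b promoter, the 6 WT libraries had a peak at percentiles of 79.6 to 89.2 of their lists and none of the 4 p27KO libraries had one, with a p27KO minus WT change in normal score of −2.75 at PRO (adjusted p = 0.000198) and −2.38 at DIFF (adjusted p = 0.00088), which matched the titles and not a free-text field that names the p27KO libraries as WT. Of 8 neural stem and progenitor marker genes, 7 had a promoter peak in all 10 libraries and Pax6 had one in 1 library. Of 6 microglial and 6 endothelial markers, 3 to 4 and 2 to 3 had a promoter peak in a given library, while Cx3cr1, Ptprc, Pecam1 and Tek were at 0 throughout. Of the 4 microglial promoters tested, P2ry12 fell at DIFF, by 0.79 in WT (adjusted p = 0.0106) and by 0.82 in the p27KO cultures (adjusted p = 0.0343). The others did not pass the test, with changes in WT and p27KO of −0.66 and −0.96 at Tmem119, 0.66 and 1.13 at Csf1r, and 0.14 and −0.18 at Aif1. The part of these markers in the results was not tested. An open promoter is not expression.

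The number of regions followed the length of the gene. Sox5, at 954 kb, held 61 regions and 350 peaks, and Sox6, at 568 kb, held 38 regions and 254 peaks. Sox13, at 42.1 kb, held 14 regions and 89 peaks. Sox1 held 13 regions and 75 peaks, Sox14 held 8 regions and 28 peaks, and Sox21 held 5 regions and 31 peaks, with genes of 4.83, 2.06 and 3.8 kb. Of the 139 regions, 35 were found in a single library, 104 in at least 2 libraries, and 37 in all 10; the last were 17 at Sox5, 8 at Sox6, 5 each at Sox1 and Sox13, 2 at Sox21 and 0 at Sox14. Over all regions found in at least 2 libraries, 38.2% were present in all 10.

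Fewer peaks were called at these genes at DIFF on average, and the totals overlapped in WT. The 6 loci together held 91, 95 and 92 peaks in the WT PRO libraries, 60, 56 and 92 in WT DIFF, 103 and 98 in p27KO PRO, and 63 and 77 in p27KO DIFF. At Sox5 the numbers were 41, 39 and 40 in WT PRO, 25, 23 and 40 in WT DIFF, 47 and 42 in p27KO PRO, and 26 and 27 in p27KO DIFF. The WT groups overlapped through WT DIFF replicate 3, the longest list of its group, and the p27KO groups did not overlap. With every list held to its 57000 strongest peaks, Sox5 kept 29, 31 and 26 in WT PRO, 24, 23 and 25 in WT DIFF, 29 and 32 in p27KO PRO, and 23 and 22 in p27KO DIFF, so that no DIFF library reached the lowest PRO library of its genotype. Sox6 did not show this drop, with 15, 15 and 16 peaks in WT PRO, 17, 19 and 16 in WT DIFF, 13 and 16 in p27KO PRO, and 17 and 17 in p27KO DIFF. At Sox1 there were 9, 10 and 8 peaks in WT PRO, 6 in each WT DIFF library, 9 and 10 in p27KO PRO, and 6 and 5 in p27KO DIFF, with no overlap between conditions. Among the 57000 strongest, Sox1 had 5 to 6 peaks in PRO and 4 to 6 in DIFF libraries. At Sox13, the 57000 strongest gave 9, 7 and 7 peaks in WT PRO, 6, 5 and 5 in WT DIFF, 5 and 7 in p27KO PRO, and 5 and 4 in p27KO DIFF. Sox14 and Sox21 had at most 5 peaks in any library. These counts are descriptions, with no test.

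**Figure D1:**
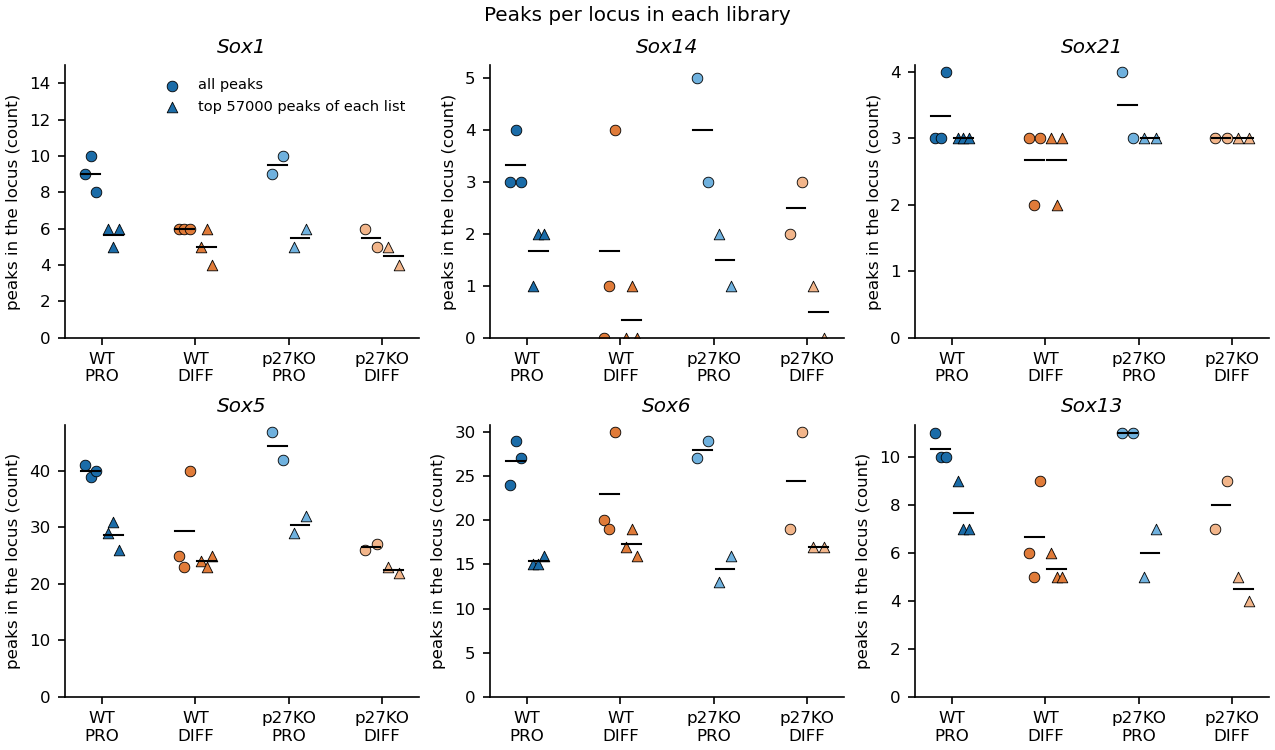
Peaks per locus in each library, as a count, for the 6 genes; circles are all peaks, triangles are the peaks among the 57000 strongest of each list, each point is a library and bars are group means. At Sox5 the 57000 strongest peaks gave 26 to 31 peaks in WT PRO against 23 to 25 in WT DIFF libraries, and 29 to 32 against 22 to 23 in p27KO.

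The limma test was run where 5 or more libraries had a peak, which left 78 of the 139 regions and 70627 of 137454 in all; p-values were adjusted over all 70627. Of the 78, 7 were at Sox1, 2 at Sox14, 3 at Sox21, 35 at Sox5, 24 at Sox6 and 7 at Sox13. By place, 59 lay in introns, 9 between genes, 3 in UTRs, 1 in coding sequence and 6 in exons of non-coding transcripts. Only 14.1% lay within 3 kb of a protein-coding start, against 25.2% of all regions tested.

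Sox1, a SoxB1 activator of neural stem cells, had an open promoter in every library. The gene (ENSMUSG00000096014) occupies bases 12395295 to 12400126 of chromosome 8, plus strand, and the region Sox1:8, at 12394862 to 12396197, spans its start. Its percentile was 69.2, 69.5 and 61.9 in WT PRO, 76.1, 75.4 and 74.3 in WT DIFF, 66.5 and 64.7 in p27KO PRO, and 73.7 and 76.2 in p27KO DIFF. Each DIFF library stood above each PRO library of its genotype, but the change of 0.36 ± 0.17 (SE) in WT (adjusted p = 0.183) and of 0.49 ± 0.21 in p27KO (adjusted p = 0.176) did not pass the test. The strongest region at Sox1 was Sox1:11, at 12429790 to 12430729, 34.9 kb downstream, in an exon of Sox1ot, a non-coding transcript that overlaps Sox1. It had percentiles of 61.4, 63.8 and 67.2 in WT PRO, 77.2, 79.8 and 85.4 in WT DIFF, 68.8 and 69.9 in p27KO PRO, and 79.7 and 83.5 in p27KO DIFF, with no overlap between conditions in either genotype. It rose in WT, by 0.64 ± 0.16 (SE, adjusted p = 0.0173), and had a change of 0.60 ± 0.20 in p27KO (adjusted p = 0.0760). The WT call was lost without WT PRO replicate 1 (adjusted p = 0.0604), WT PRO replicate 2 (0.0511) or WT DIFF replicate 2 (0.0507). The opposite presence pattern was seen 40.6 kb upstream of the gene, where Sox1:2 had a weak peak in 5 of 5 PRO and 0 of 5 DIFF libraries, at percentiles of 12.9 to 37; its change of −0.61 in WT (adjusted p = 0.0998) and −0.47 in p27KO (adjusted p = 0.348) did not pass the test.

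Sox14, a SoxB2 gene known for its role in interneuron and visual-circuit development, had no region within 3 kb of its start in any library. The gene (ENSMUSG00000053747) lies on the minus strand of chromosome 9 at 99874106 to 99876170. Its strongest region, Sox14:2 at 99846881 to 99847115, lay between genes, 28.7 kb from the nearest start. Its percentile was 55.7, 45.4 and 45.7 in WT PRO, none, 45.1 and 34.3 in WT DIFF, 60.4 and 62.4 in p27KO PRO, and 24.4 and 21.1 in p27KO DIFF. WT DIFF replicate 1 had no peak at all within the Sox14 window. Neither tested region of Sox14 passed the test in any contrast, and the change at Sox14:2 was −0.42 ± 0.28 (SE) in WT (adjusted p = 0.337) and −0.63 ± 0.35 in p27KO (adjusted p = 0.291).

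Sox21, the other SoxB2 gene, had the strongest promoter of the 6 together with Sox5. The gene (ENSMUSG00000061517) lies on the minus strand of chromosome 14 at 118233232 to 118237030. The region Sox21:5, at 118236206 to 118237591, spans its start and the start of the non-coding gene Gm4675 on the other strand. Its percentile was 81.5, 82.4 and 81.1 in WT PRO, 82.0, 83.9 and 89.7 in WT DIFF, 86.1 and 85.6 in p27KO PRO, and 86.4 and 89.1 in p27KO DIFF. The WT groups overlapped and the p27KO DIFF values were just above those at PRO, with a change of 0.25 ± 0.16 (SE) in WT (adjusted p = 0.295) and 0.23 ± 0.19 in p27KO (adjusted p = 0.496). The distal region Sox21:2 moved the other way. It lies at 118209763 to 118210353, 27.2 kb downstream, in an exon of the long non-coding gene 4933431J24Rik. It had percentiles of 82.9, 86.1 and 87.6 in WT PRO, 56.0, none and 52.2 in WT DIFF, 90.9 and 82.7 in p27KO PRO, and 39.4 and 49.5 in p27KO DIFF. It was as strong as the promoter at PRO and fell by 1.33 ± 0.29 (SE) in WT (adjusted p = 0.00916); in p27KO the change was −1.11 ± 0.36 (adjusted p = 0.0701), with no overlap between conditions.

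Sox13, a SoxD gene expressed in the embryonic nervous system, had a steady promoter. The gene (ENSMUSG00000070643) lies on the minus strand of chromosome 1 at 133382303 to 133424377, and Sox13:11, at 133422390 to 133424500, spans its first start. The percentile was 73.9, 73.6 and 63.9 in WT PRO, 67.0, 64.7 and 82.3 in WT DIFF, 71.9 and 74.4 in p27KO PRO, and 67.4 and 64.5 in p27KO DIFF. The WT groups overlapped, both p27KO DIFF values were below those at PRO, and the changes were 0.17 ± 0.17 (SE, adjusted p = 0.531) and −0.01 ± 0.21 (adjusted p = 0.976). A second coding start inside the gene, marked by Sox13:9 at 133393213 to 133393592, was at percentiles of 51.6 and 42.7 in WT PRO replicates 1 and 2 and of 17.4 and 29.5 in p27KO PRO, with no peak in the other libraries; it was present in too few libraries to be tested. The strongest region, Sox13:12, lay between genes 10.3 kb upstream of the first start, with percentiles of 48.5 to 88.0 over the 10 libraries. The one call in the Sox13 window, Sox13:3 at 133363327 to 133364103, lies at the promoter of the neighbouring gene Etnk2 and cannot be assigned to Sox13. Its change of −0.68 ± 0.21 (SE) in WT (adjusted p = 0.0429) was not past the threshold in p27KO (−0.58 ± 0.26, adjusted p = 0.180), and in WT it held only without WT DIFF replicate 1 among the 10 libraries left out in turn, with adjusted p of 0.0549 to 0.117 in the others. It was also lost with regions in at least 2 libraries (0.0774), peaks of 100 bp on each side of the summit (0.0502), a replicate block (0.0507) or only the groups compared (0.0719).

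At Sox5 the promoter stayed open while many intronic regions lost rank at DIFF. The gene (ENSMUSG00000041540) lies on the minus strand of chromosome 6 at 143828425 to 144781977. Its protein-coding transcripts start within 143947088 to 143947106 and within 144209452 to 144209568, and the 572 kb of gene body upstream of the latter are spanned only by transcripts annotated without a coding product. The region Sox5:23, at 144208938 to 144210635, covers the first coding start. Its percentile was 80.5, 88.5 and 86.8 in WT PRO, 79.1, 78.2 and 88.9 in WT DIFF, 90.9 and 91.0 in p27KO PRO, and 76.3 and 88.2 in p27KO DIFF. The WT groups overlapped, and the change was −0.02 ± 0.19 (SE, adjusted p = 0.952) in WT and −0.26 ± 0.23 (adjusted p = 0.531) in p27KO. The first annotated start of the gene, from which the transcripts without a coding product begin, lay under Sox5:59 at 144781192 to 144782741, which also had a peak in every library, at percentiles of 40.7 to 79.0, with changes of −0.12 (adjusted p = 0.708) and −0.19 (adjusted p = 0.670).

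The Sox6 gene, by contrast, had peaks of unequal strength at or near several of its starts. It (ENSMUSG00000051910) lies on the minus strand of chromosome 7 at 115470872 to 116038796 and has 8 coding starts. The region nearest to any of them, Sox6:34 at 116030069 to 116031331, was among the weakest peaks of each list, at percentiles of 0.728 to 11.9 in 8 libraries and with no peak in WT DIFF replicate 2 and p27KO DIFF replicate 2. Sox6:36, at 116033073 to 116034786, covers starts at 116033602 and 116034513 of transcripts without a coding product. It had a peak in every library, at percentiles of 28.1 to 42.7. Its changes of 0.42 in WT (adjusted p = 0.157) and 0.48 in p27KO (adjusted p = 0.222) did not pass the test. A coding start inside the gene lay under Sox6:29, at 115824436 to 115825963. Its percentile was 74.4, 79.3 and 82.9 in WT PRO, 54.3, 59.2 and 72.4 in WT DIFF, 80.9 and 83.3 in p27KO PRO, and 65.3 and 64.5 in p27KO DIFF. Every DIFF library was below every PRO library of its genotype, but the change of −0.37 in WT (adjusted p = 0.167) and −0.38 in p27KO (adjusted p = 0.294) did not pass the test. The region Sox6:37, at 116039460 to 116040807, lay 1.6 kb upstream of the first Sox6 start and within the first intron of 1110004F10Rik, a gene on the other strand, at percentiles of 68.8 to 85.9; it cannot be assigned to either gene. Sox6:29, Sox6:36, Sox6:37, Sox5:59 and Sox13:9 were picked for their place at or near a start after the values had been seen.

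**Figure D2:**
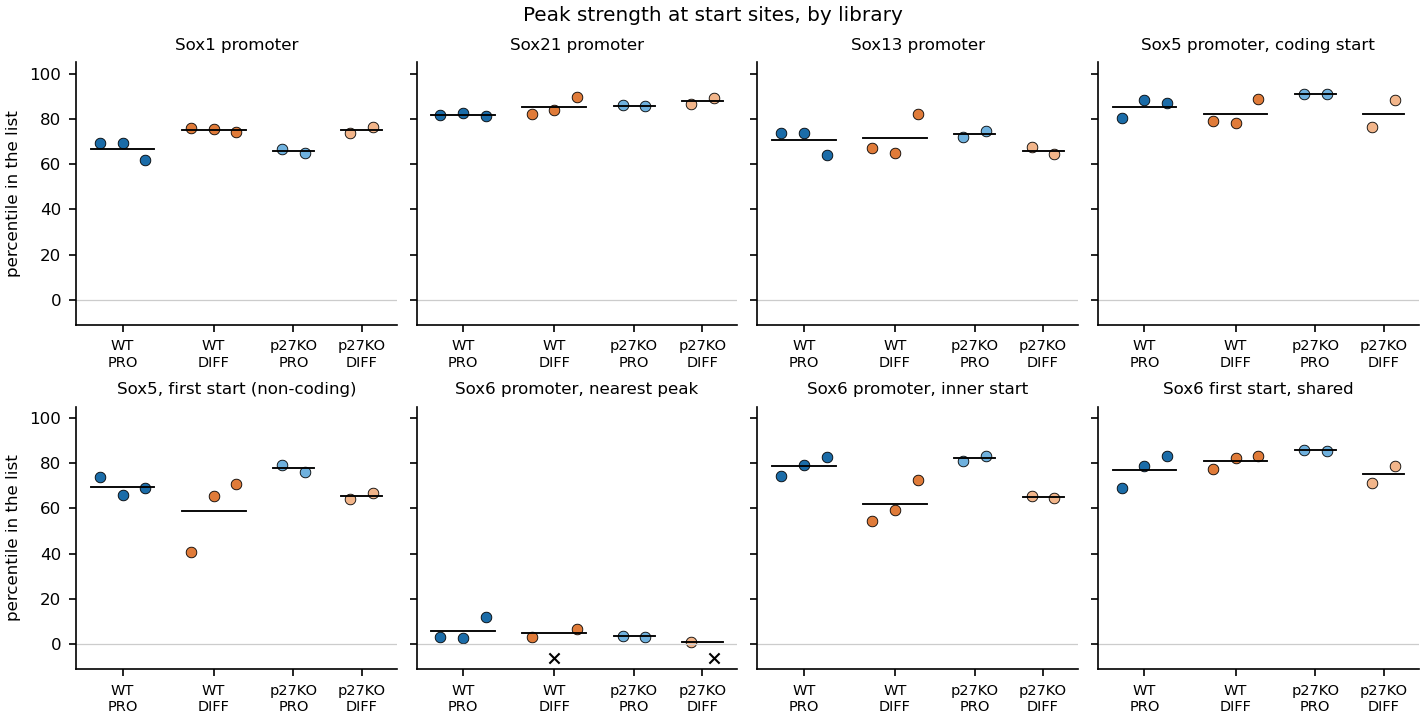
Percentile of peak strength within the list (vertical axis, 100 strongest) at start sites, by library; each point is a library, bars are means of the libraries with a peak and crosses below the line are libraries without one. None of these 8 regions passed the test for DIFF minus PRO in either genotype; the Sox6 region nearest to a start stays under a percentile of 12, and the Sox21 and Sox5 promoters lie above 76.

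Ordered by their mean percentile over WT PRO libraries, the promoters ran from Sox5 (85.3 ± 4.22, SD, n = 3) and Sox21 (81.6 ± 0.673) to Sox13 (70.5 ± 5.68) and Sox1 (66.9 ± 4.32), with Sox6:34 (5.86 ± 5.21) far below. Sox6 is ranked here by the region nearest to a start; Sox6:29, at 74.4 to 82.9 in WT PRO, was above every value of the Sox13 and Sox1 promoters in that group. In WT DIFF the order was Sox21 (85.2 ± 3.99, SD, n = 3), Sox5 (82.1 ± 5.94), Sox1 (75.2 ± 0.9), Sox13 (71.3 ± 9.59) and Sox6:34 (4.84 ± 2.59, over the 2 libraries with a peak). Sox5 and Sox21, and likewise Sox1 and Sox13, exchanged places between conditions. In each case the gap between the means was smaller than the larger SD of the pair and no test was made of it. Percentiles are taken at the summit and are not divided by gene length. Across the 10 libraries, the promoters with the most similar scores, of 14393 tested, were those of Kpnb1 (Pearson r = 0.977) for Sox1, Ext1 (0.969) and Usp48 (0.965) for Sox21, Gm28778 and Ormdl1 (both 0.926) for Sox5, Chst7 (0.947) and Tmem121b (0.930) for Sox6, and Olfr957 and Hhatl (both 0.933) for Sox13. These are descriptions: the 10 points differ in condition, genotype and list length, which can move promoters together. None of 11 tested promoters of 13 other Sox genes passed the test for DIFF minus PRO in WT or p27KO; the lowest adjusted p was 0.0913, at Sox18, and the Sox2 promoter had changes of 0.42 (adjusted p = 0.205) and 0.29 (adjusted p = 0.538).

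Over the 6 loci, 15 of 78 WT regions passed the test for DIFF minus PRO, of which 10 fell and 5 rose. The 10 falls include Sox13:3, at the Etnk2 promoter. In all regions tested, 10.1% were lower and 9.15% were higher in this contrast. In p27KO, 11 of 78 passed, 10 lower and 1 higher, against 6.48% lower and 5.83% higher over all regions. The calls fell in 20 regions, of which 6 passed in both genotypes, all 6 with the same sign. The p27KO count rests on every library: with one left out, so that a single library stands for its condition and is assumed to vary like the other groups, it was 5 (without PRO replicate 1), 2 (PRO replicate 2), 3 (DIFF replicate 1) or 1 (DIFF replicate 2). The WT count was 11 to 16 with any of the 10 libraries left out. Among the 78 changes, the median was −0.08 in WT and −0.24 in p27KO, beside 0.03 and 0.04 over all regions. Of the 78, 5 had peaks in PRO libraries alone and could only fall, and they gave 3 of the 10 falls in each genotype. Among the other 73, 7 fell and 5 rose in WT and 7 fell and 1 rose in p27KO. Over all regions with a peak in both conditions, 8.12% fell and 8.22% rose in WT, and 5.11% fell and 4.73% rose in p27KO. The medians of the 73 were −0.02 in WT and −0.20 in p27KO. This count was added after the data were seen.

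By locus, Sox5 held 7 of the 10 falls in WT and 8 of the 10 in p27KO, among 35 of the 78 regions. Its median change was −0.33 in WT and −0.46 in p27KO, with 25 and 28 of 35 regions below 0. Over all regions tested, 47.2% in WT and 46.6% in p27KO were below 0. Without its 3 regions with peaks in PRO alone, Sox5 had 4 falls in WT and 6 in p27KO among 32 regions, with medians of −0.17 and −0.30. At Sox6 the median was 0.15 and 0.06, with 9 and 10 of 24 below 0, and calls numbered 1 lower and 1 higher in WT and 2 lower and 1 higher in p27KO. Within Sox5, the 15 tested regions in the span of the coding transcripts included 3 falls and 1 rise in WT and 3 falls in p27KO, with medians of −0.45 and −0.48. The 19 in the upstream 572 kb included 4 falls and 2 rises in WT and 5 falls in p27KO, with medians of −0.13 and −0.33. The 3 regions with peaks in PRO alone were all in this upstream stretch. This split was made after the values had been seen.

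**Figure D3:**
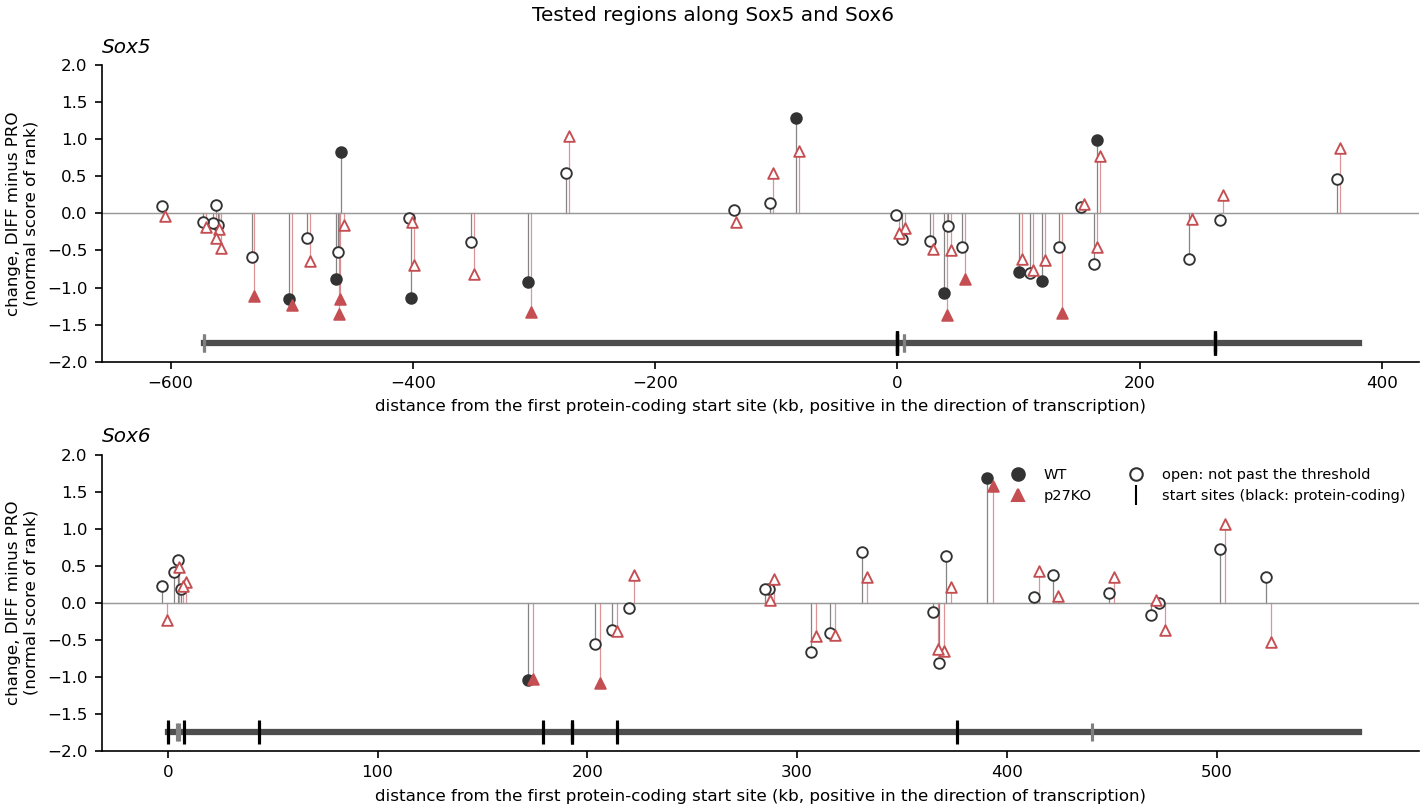
Change in normal score of rank, DIFF minus PRO (vertical axis), of tested regions along Sox5 (35 regions) and Sox6 (24 regions) against distance from the first protein-coding start in kb; circles are WT, triangles p27KO, filled symbols are past an adjusted p of 0.05, and the bar is the gene body with its start sites. Filled symbols at Sox5 lie below 0 apart from 3 WT points, and at Sox6 the 1 region above 0 that is filled in both genotypes has changes of 1.68 and 1.58.

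The Sox5 regions that fell in both genotypes were Sox5:20, Sox5:38, Sox5:48 and Sox5:50, all in introns. Sox5:48 and Sox5:50 had peaks in PRO alone and could only fall. Sox5:20 and Sox5:38 also had peaks in some DIFF libraries. Their PRO peaks by themselves met the filter of 5 libraries, so these falls are not free of it. Sox5:20, Sox5:38 and Sox5:50 are printed as 201 bases of the plus strand of GRCm38 (RefSeq, GRCm38.p6) centred on the summit, because they are among these regions. Capitals mark matches, on either strand, to the letters ACAAAG (the core of SOX sites), TGANTCA (AP-1), TTGGC (part of the NFI site) and CAGCTG (an E-box).
Sox5:20 at chr6:144169861-144170061: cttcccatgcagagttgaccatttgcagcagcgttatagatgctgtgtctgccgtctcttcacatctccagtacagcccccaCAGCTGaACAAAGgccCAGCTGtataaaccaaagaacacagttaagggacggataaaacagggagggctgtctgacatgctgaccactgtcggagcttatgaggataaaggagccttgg
Sox5:38 at chr6:144513885-144514085: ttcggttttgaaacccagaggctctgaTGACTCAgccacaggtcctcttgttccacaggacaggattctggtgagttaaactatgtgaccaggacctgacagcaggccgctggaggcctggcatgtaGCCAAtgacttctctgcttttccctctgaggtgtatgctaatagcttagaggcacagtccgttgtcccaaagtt
Sox5:50 at chr6:144710934-144711134: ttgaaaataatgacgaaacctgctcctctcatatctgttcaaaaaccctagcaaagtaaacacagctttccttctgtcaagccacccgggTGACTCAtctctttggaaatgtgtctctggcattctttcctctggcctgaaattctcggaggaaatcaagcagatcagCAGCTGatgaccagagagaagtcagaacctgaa

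Sox5:20 lies 39.6 kb downstream of the first coding start, and its ACAAAG stands between a pair of CAGCTG E-boxes. Its percentile was 54.9, 59 and 65.6 in WT PRO, 10.8, none and 12.9 in WT DIFF, 68.8 and 68.3 in p27KO PRO, and 6.22 and none in p27KO DIFF. All PRO libraries were far above all DIFF libraries, and the change was −1.08 ± 0.24 (SE, adjusted p = 0.00891) in WT and −1.37 ± 0.29 (adjusted p = 0.0108) in p27KO. The p27KO call was lost without p27KO PRO replicate 2 (adjusted p = 0.0674) or p27KO DIFF replicate 2 (0.0893). Sox5:38 lies 304 kb upstream of the coding start. Its percentile was 40.5, 63.3 and 45.7 in WT PRO, 25.5 in WT DIFF replicate 3 alone, 68.3 and 74.1 in p27KO PRO, and 21.1 in p27KO DIFF replicate 2 alone. The change was −0.92 ± 0.22 (SE, adjusted p = 0.0148) in WT and −1.33 ± 0.28 (adjusted p = 0.00965) in p27KO. The WT call was lost without WT PRO replicate 2 (adjusted p = 0.0599) or WT DIFF replicate 1 (0.0515), and the p27KO call without p27KO PRO replicate 2 (0.0769) or p27KO DIFF replicate 1 (0.0839).

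Sox5:48 and Sox5:50 lie 462 and 501 kb upstream of the coding start and had a peak in 5 of 5 PRO and 0 of 5 DIFF libraries. At Sox5:48, also inside Sox5it, a non-coding transcript within the intron, the percentile was 51.5, 28.2 and 33.3 in WT PRO and 59.6 and 59.7 in p27KO PRO. The change was −0.89 ± 0.23 (SE, adjusted p = 0.0198) in WT and −1.36 ± 0.28 (adjusted p = 0.00983) in p27KO. The WT call was lost without WT PRO replicate 1 (adjusted p = 0.0760) or WT DIFF replicate 3 (0.06) and with 57000 peaks per list (0.0733), and the p27KO call without p27KO PRO replicate 2 (0.0660) or p27KO DIFF replicate 2 (0.0654). At Sox5:50 the percentile was 62.4, 54.5 and 25.9 in WT PRO and 52.1 and 58.6 in p27KO PRO. The change was −1.16 ± 0.26 (SE, adjusted p = 0.0106) in WT and −1.23 ± 0.32 (adjusted p = 0.0304) in p27KO, where no call was left without any 1 of the 4 p27KO libraries (adjusted p 0.0702 to 0.175). Another such region, Sox5:42 at 400 kb upstream, with percentiles of 62.4, 36.7 and 42.4 in WT PRO and 56.4 and 10.9 in p27KO PRO, fell in WT by 1.14 ± 0.29 (SE, adjusted p = 0.0196) but not past the threshold in p27KO (−0.70 ± 0.36, adjusted p = 0.253). That WT call was lost without WT PRO replicate 1 (adjusted p = 0.0745) or WT DIFF replicate 3 (0.0700). These 3 regions entered the test through PRO peaks alone, so that they could only be lower at DIFF.

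The other Sox5 falls were called in 1 genotype. In WT they were Sox5:13 (−0.91, adjusted p = 0.00613) and Sox5:16 (−0.79, adjusted p = 0.0159), with p27KO changes of −0.63 (0.103) and −0.61 (0.131). In p27KO they were Sox5:12 (−1.35, adjusted p = 0.0134), Sox5:18 (−0.89, 0.0237), Sox5:47 (−1.15, 0.0254) and Sox5:53 (−1.12, 0.0112), with WT changes of −0.46, −0.45, −0.52 and −0.59. Sox5:12, Sox5:47 and Sox5:53 had a peak in each PRO library and none in p27KO DIFF, so that in p27KO they could only fall. Sox5:18 lies over coding sequence and the others in introns or, for Sox5:47, in Sox5it. These 6 fell outside the rule for named regions and were added after their values had been seen.

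The rises at Sox5 were found in WT. Sox5:29, in an intron 82.1 kb upstream of the coding start, had no peak in the 3 WT PRO libraries and percentiles of 5.48, 41.1 and 41.4 in WT DIFF, 11.4 and 16.6 in p27KO PRO, and 34.9 and 31.1 in p27KO DIFF. It rose by 1.29 ± 0.21 (SE, adjusted p = 0.00168) in WT, with a change of 0.84 ± 0.26 (adjusted p = 0.0588) in p27KO. Its DIFF peaks alone met the filter of 5 libraries, and with no WT PRO peak it could only rise in WT. Sox5:9, in an intron 166 kb downstream of the first coding start, had percentiles of 14.5, 49.0 and 42.4 in WT PRO, 62.2, 70.4 and 71.1 in WT DIFF, 48.7 and 41.6 in p27KO PRO, and 61.4 and 66.5 in p27KO DIFF. It rose by 0.99 ± 0.24 (SE, adjusted p = 0.0131) in WT, with a change of 0.77 ± 0.29 (adjusted p = 0.113) in p27KO and no overlap between conditions in either genotype.

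The third, Sox5:45, was weak and lay in a tandem repeat, so it is to be read with care. It is shown with Sox5:11, the strongest region of the gene.
Sox5:45 at chr6:144667762-144667962: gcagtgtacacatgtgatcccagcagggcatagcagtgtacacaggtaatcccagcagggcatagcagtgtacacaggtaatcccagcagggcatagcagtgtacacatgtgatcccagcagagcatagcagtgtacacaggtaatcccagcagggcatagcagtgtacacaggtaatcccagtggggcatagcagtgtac
Sox5:11 at chr6:144056826-144057026: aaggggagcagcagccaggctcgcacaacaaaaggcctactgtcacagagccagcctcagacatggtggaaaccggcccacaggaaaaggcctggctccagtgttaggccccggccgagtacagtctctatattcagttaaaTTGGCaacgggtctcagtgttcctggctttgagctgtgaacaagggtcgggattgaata

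Shifted by 32 bp, the Sox5:45 window matched itself at 94.1% of bases, whereas the best shift of 10 to 60 bp gave at most 44.3% in the 23 other windows of named regions. Reads from such repeats can be placed on more than 1 copy. The percentile was 14.2, none and none in WT PRO, 16.6, 10.6 and 25.5 in WT DIFF, 8.03 and 19.9 in p27KO PRO, and none in p27KO DIFF. The WT change was 0.83 ± 0.23 (SE, adjusted p = 0.0282), and it was lost without WT PRO replicate 2 (0.0996), WT PRO replicate 3 (0.0870), WT DIFF replicate 1 (0.0904) or WT DIFF replicate 2 (0.0888), and with ranks by −log10 p-value (0.0726). In p27KO the change was −0.15 ± 0.28 (adjusted p = 0.794). Sox5:11, in an intron 153 kb downstream of the first coding start, had percentiles of 92.5, 95.6 and 98.0 in WT PRO, 95.2, 95.6 and 97.1 in WT DIFF, 97.8 and 95.5 in p27KO PRO, and 96.9 and 97.1 in p27KO DIFF. The groups overlapped, with changes of 0.09 ± 0.20 (SE, adjusted p = 0.789) and 0.13 ± 0.24 (adjusted p = 0.797).

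At Sox6, a fall and a rise were found in both genotypes at intronic regions on opposite sides of the start under Sox6:29. Sox6:32, Sox6:15 and the strongest region, Sox6:23, are printed in the same way. No searched motif lies in the 201 bases printed for Sox6:32 and Sox6:15. The 301 bp window of Sox6:32 that was searched for the counts below holds 1 AP-1 match.
Sox6:32 at chr7:115866099-115866299: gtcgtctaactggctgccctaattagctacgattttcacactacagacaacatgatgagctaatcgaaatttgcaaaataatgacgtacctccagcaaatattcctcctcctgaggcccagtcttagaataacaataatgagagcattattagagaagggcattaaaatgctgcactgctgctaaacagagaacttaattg
Sox6:15 at chr7:115646235-115646435: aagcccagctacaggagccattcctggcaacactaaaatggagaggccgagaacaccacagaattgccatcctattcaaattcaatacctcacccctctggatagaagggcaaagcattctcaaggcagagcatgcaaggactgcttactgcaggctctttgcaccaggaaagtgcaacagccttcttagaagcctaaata
Sox6:23 at chr7:115722088-115722288: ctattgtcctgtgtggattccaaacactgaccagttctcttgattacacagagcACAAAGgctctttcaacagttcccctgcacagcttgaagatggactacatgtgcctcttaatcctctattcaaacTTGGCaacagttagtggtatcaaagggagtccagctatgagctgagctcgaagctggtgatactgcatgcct

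Sox6:32 had percentiles of 40.5, 52.5 and 38.8 in WT PRO, none in the 3 WT DIFF libraries, 58.4 and 54.3 in p27KO PRO, and none and 5.07 in p27KO DIFF. It fell by 1.05 ± 0.22 (SE, adjusted p = 0.00667) in WT and by 1.03 ± 0.27 (adjusted p = 0.0284) in p27KO. Its PRO peaks alone met the filter of 5 libraries, and with no WT DIFF peak it could only fall in WT. The p27KO call was lost without any 1 of the 4 p27KO libraries (adjusted p 0.0676 to 0.156). Sox6:15 had the largest change of the 78 regions in either genotype. Its percentile was 40.5, 36.7 and none in WT PRO, 77.8, 83.4 and 78.5 in WT DIFF, 5.80 and 36.1 in p27KO PRO, and 69.2 and 72.6 in p27KO DIFF. Every DIFF library was above every PRO library, and the rise was 1.68 ± 0.33 (SE, adjusted p = 0.00465) in WT and 1.58 ± 0.40 (adjusted p = 0.0260) in p27KO. The p27KO call was lost without p27KO PRO replicate 1 (adjusted p = 0.178), DIFF replicate 1 (0.103) or DIFF replicate 2 (0.106), and with regions in at least 2 libraries (0.0622).

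Sox6:30, 9.13 kb from the nearest start, had percentiles of 22.4, 17.4 and 34.9 in WT PRO, 43.9 and 56.6 in p27KO PRO and no peak at DIFF. It too entered the test through PRO peaks alone and could only fall. Its change was −0.56 ± 0.24 (SE, adjusted p = 0.129) in WT and −1.08 ± 0.29 (adjusted p = 0.0349) in p27KO. That call was lost without p27KO PRO replicate 2 (adjusted p = 0.229), DIFF replicate 1 (0.0972) or DIFF replicate 2 (0.157), and with the replicate number as a block (0.0581). Sox6:23 had percentiles of 87.3, 91.2 and 96.1 in WT PRO, 81.7, 68.0 and 91.1 in WT DIFF, 97.0 and 92.6 in p27KO PRO, and 83.4 and 89.8 in p27KO DIFF. The changes were −0.41 ± 0.23 (SE, adjusted p = 0.256) and −0.44 ± 0.29 (adjusted p = 0.381).

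**Figure D4:**
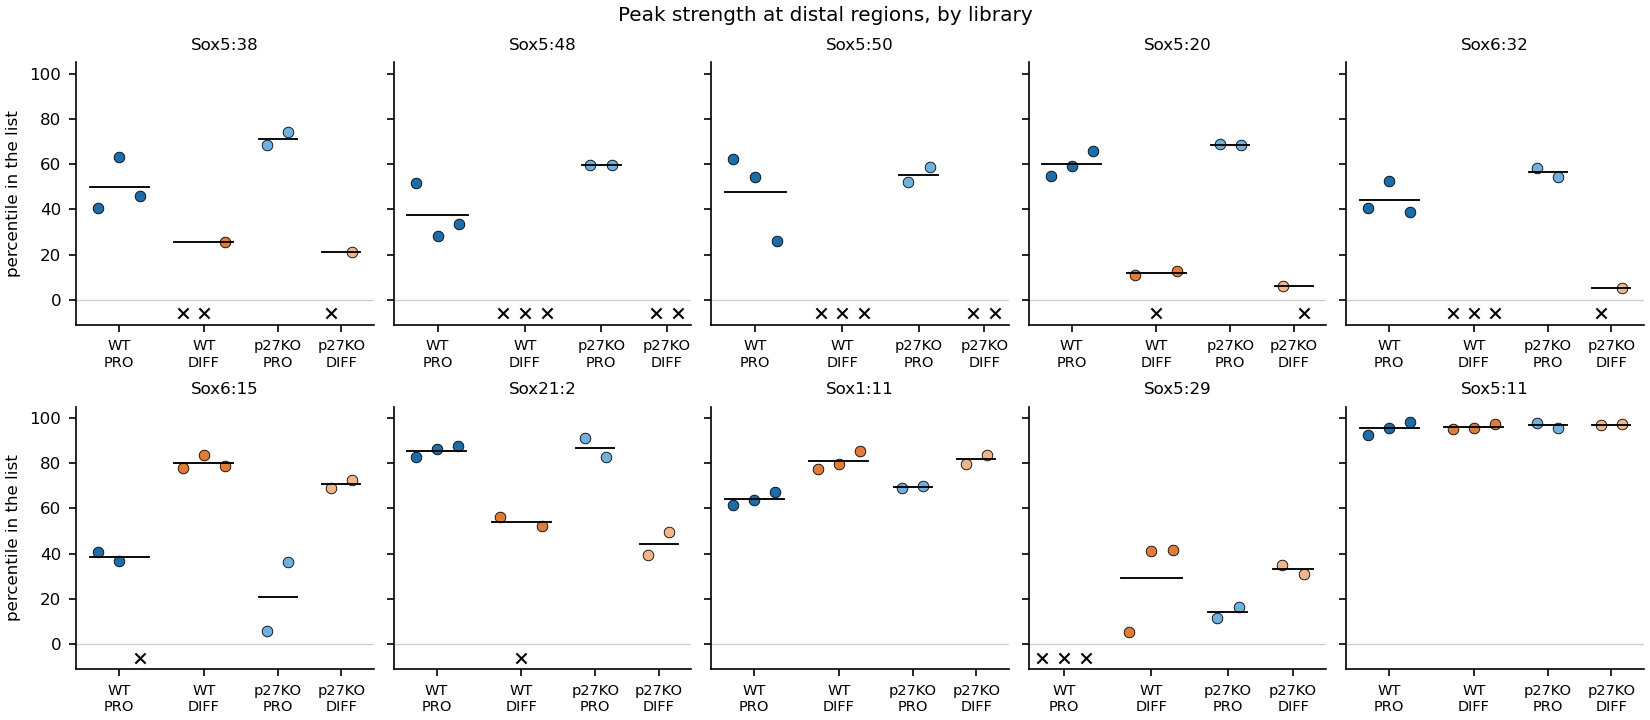
Percentile of peak strength within the list (vertical axis, 100 strongest) at 10 distal regions, by library; each point is a library, bars are means of the libraries with a peak and crosses below the line are libraries without one. Sox5:48 and Sox5:50 have crosses in 5 of 5 DIFF libraries, Sox6:15 lies at 69.2 or above in each DIFF library and at 40.5 or below in each PRO library, and Sox5:11 stays above 92 throughout.

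In windows of 301 bp around the summit, AP-1 letters were present in 7 of the 15 member regions that fell in either genotype (46.7%) and in 0 of the 5 that rose. Of these 15, 11 had peaks in both conditions. The 15 include Sox13:3, at the Etnk2 promoter, which holds AP-1 letters. AP-1 letters were present in 10.9% of 70509 tested regions with a full window on an assembled chromosome, in 27.6% of 8004 that fell and in 7.16% of 7308 that rose. SOX letters were found in 5 of the 15 falls (33.3%) and 1 of the 5 rises. Their share was 27.3% of all regions, 34.5% of the 8004 that fell and 31.7% of the 7308 that rose. CAGCTG was found in 6 of the 15 (40.0%) and 0 of the 5, beside 26.7%, 40.4% and 21.2% in the same order. TTGGC was found in 6 of the 15 (40.0%) and 1 of the 5, beside 54.5%, 54.3% and 67.8%. Over all 78 regions the shares were 14.1% for AP-1, 26.9% for SOX, 30.8% for CAGCTG and 48.7% for NFI. Both strands were searched and each motif was counted on its own, so that matches may overlap. A match is not a bound site.

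Presence was also compared without ranks. Closed here means a peak in each PRO library and no DIFF library of a genotype, and opened means the reverse. In WT, 7 regions were closed and 1 was opened, against 4.32% and 1.86% of all regions found in at least 2 libraries; in p27KO, 21 were closed and 3 opened, against 10.9% and 3.32%. The 21 were 13 at Sox5, 4 at Sox13, 2 at Sox1 and 1 each at Sox14 and Sox6. Closed in both genotypes were 5 of 104 regions, beside 2.61% of all, and 0 were opened in both, beside 0.959%. WT has 3 libraries per condition and p27KO has 2, so that closing or opening is easier to meet in p27KO and the genotypes' counts cannot be compared. The WT count rests on WT DIFF replicate 3: without it, 17 regions were closed, and without WT PRO replicate 3 there were 11. The p27KO count was 33 without p27KO DIFF replicate 2, and 9 with lists held to 57000 peaks. Opened regions numbered 2 in WT without WT PRO replicate 1 or WT DIFF replicate 1, and 5 in p27KO without p27KO DIFF replicate 1.

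No region at the 6 genes was shown to differ between the genotypes. The interaction, which tests whether the change on differentiation differed between WT and p27KO, gave 0 calls among the 78 regions and 0.0% over all 70627 (limma); at an unadjusted p under 0.05, 2 of 78 passed, beside 3.91%. These 2 were Sox5:12 (−0.90 ± 0.39, SE, unadjusted p = 0.0403) and Sox5:45 (−0.98 ± 0.37, unadjusted p = 0.0213), both with an adjusted p of 1.0. At PRO, p27KO minus WT gave 0 calls, and 0 of 78 at an unadjusted p under 0.05, beside 5.53% of all regions; 0.034% of all were called. At DIFF it gave 0 calls, with 5 of 78 at an unadjusted p under 0.05, beside 4.91% of all regions; 0.0156% of all were called. With peaks cut to 100 bp on each side of the summit, 1 part of the inner Sox6 promoter, at 115825360 to 115825604 with a peak in 8 libraries, was called lower in p27KO at DIFF (−1.7, adjusted p = 0.0148). Changes in the 2 genotypes are plotted side by side; each comes from its own libraries.

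**Figure D5:**
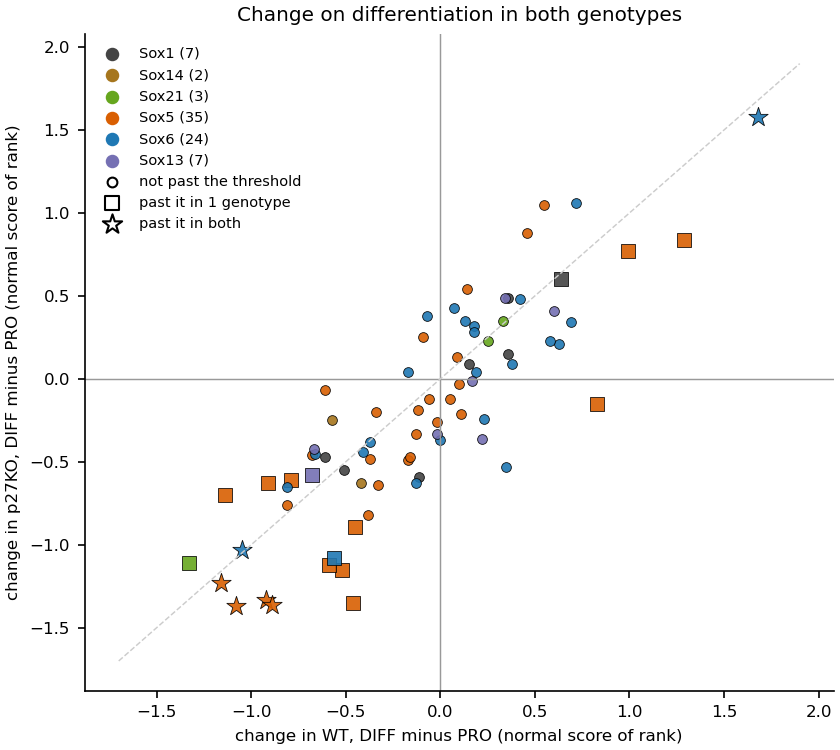
Change in normal score of rank for DIFF minus PRO in WT (horizontal axis) and in p27KO (vertical axis) for the 78 tested regions, coloured by gene; circles passed the test in neither genotype, squares in 1 and stars in both, and the dashed line marks equal change. The 6 stars lie 5 in the lower left quadrant and 1 in the upper right, and 1 square, Sox5:45, lies above 0 in WT (0.83) and below 0 in p27KO (−0.15).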

How the data were processed

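ATAC-seq peak lists of 10 libraries (3 WT PRO, 3 WT DIFF, 2 p27KO PRO, 2 p27KO DIFF) were used, grouped by sample title. Per the study's methods, the authors used Cutadapt and Trimmomatic to clean the reads, Bowtie2 for mapping to GRCm38 and Picard for duplicates, and ran MACS2 on each library for narrow peaks (false discovery rate 0.05); versions are not given in the sources used here. The deposited fold enrichment is a ratio of the summit pileup to local background, and the deposited lists also hold the −log10 p-value and −log10 q-value of each peak. Sequencing depth per library is unknown and may set list length, so the lack of a peak does not show closed DNA.

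Peaks of all lists sharing 1 bp were merged. The fold enrichment of the strongest peak was ranked within each list and turned into a normal score. Where 5 or more libraries had a peak, scores were fitted with limma 3.58.1 (R 4.3.3), with 1 mean per group and Benjamini-Hochberg adjustment over 70627 regions; the fit was tested on simulated data. DiffBind, which the study ran on alignments, was not used here. Genes were taken from GENCODE M21 (the study used M18) and sequences from RefSeq (GRCm38.p6). Positions count from 1. A promoter similar to that of Sox1 and the sequence of Sox5:48 are not reported here.

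Named regions were, per gene, the one nearest a coding start within 3 kb, the strongest, up to 3 per direction called in both genotypes or else in 1, any called between genotypes, and up to 3 closed or opened in both. The genes, lists, motifs and rules were chosen with earlier results of these data known. Alternatives were ranks by −log10 p-value, regions in at least 2 or in all 10 libraries, the 57000 strongest peaks, a −log10 q-value of at least 2, peaks of 100 bp on each side of the summit, a flank of 10 kb, only the groups compared, replicate blocks and leaving out each library.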

Additional observations from a re-analysis of the deposited data

How the results depend on the processing

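Counts stayed within 1.5 times of the reported value in 60 of 65 comparisons with other settings and in 60 of 70 that left out a library. Many of these could hardly move. They include the interaction and both genotype contrasts, where 0 calls that stayed at 0 counted as unchanged. They also include WT or p27KO calls without a library of the other genotype. Each p27KO library left out in turn moved the count of p27KO calls beyond this range. With only regions present in all 10 libraries, which tests 37 member regions, calls numbered 9 in WT and 1 in p27KO. With 57000 peaks per list, 9 regions were closed in p27KO and 0 opened in WT. With peaks of 100 bp on each side of the summit, 1 region was called for p27KO minus WT at DIFF. Leaving out a library gave 11 to 16 calls in WT, 1 to 13 in p27KO, 7 to 17 closed and 1 to 2 opened regions in WT, and 23 to 33 closed and 3 to 5 opened in p27KO; the interaction and both genotype contrasts stayed at 0 calls in each.

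Deviations of same-numbered PRO and DIFF libraries from their group means correlated at 0.033 to 0.065 in WT and −0.141 in p27KO. With 2 libraries per p27KO group, that value is the same for both numbers by construction, and its sign depends on the numbering. These correlations cannot show whether libraries share an animal or culture. With a replicate block, calls numbered 15 in WT and 10 in p27KO, and 0 in the other contrasts. A crossed replicate block for p27KO DIFF, added after seeing the data, gave 16 and 10.

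Of 242 changes at named regions under other settings, 229 kept sign and call, 9 lost the call and 4 changed sign, all at promoters that were not called: Sox1 in p27KO (−0.48, peaks cut to the summit), Sox21 in WT (−0.05) and Sox6 in p27KO (−0.11), both with ranks by −log10 p-value, and Sox6 in WT (−0.01, regions in at least 2 libraries). With a library left out, 42 of 300 lost the call and 7 changed sign, at the promoters of Sox5 in WT (−0.13 to 0.05), Sox13 in p27KO (−0.1 to 0.07) and Sox6 in p27KO (−0.05 to 0.6). The cause was not tested. Read depth per library is unknown, and groups of 2 or 3 libraries limit what could be detected.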
